A study of Mus musculus with 9 samples.

Results

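The heat shock chaperones described here are 10 named genes of the cytosol and the mitochondrion: Hspb1, Dnajb1, Hspa8, Hsph1, Hspa4, Hsp90aa1, Hsp90ab1, Dnaja1, Hspd1 and Hspe1. A gene was taken from the array when a probe set carried its symbol and no other, and its brightest such probe set stood for it. This gave a value for 8 of the 10, among 22180 genes of the array with such a probe set and 12170 genes bright enough to be tested, and all 8 were among those tested. The only probe set of Dnaja1 also carries the symbol Mir207, and none in the annotation used here carries the symbol Hsp90ab1, so these 2 genes were not analysed here.

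Chaperones bind proteins that are unfolded or not yet folded and keep them from clumping. In the cytosol, small heat shock proteins hold unfolded proteins, J-domain proteins hand them to Hsp70, Hsp110 proteins reload Hsp70 by exchanging its nucleotide, and Hsp90 acts on later folding steps of kinases and receptors. In the mitochondrial matrix, the chaperonin and its lid enclose single proteins while they fold. When unfolded proteins accumulate, heat shock factor 1 binds runs of the inverted half-sites GAA and TTC in promoters and raises the transcription of many of these genes. Some of them, Hspa8 among these, are also abundant in unstressed cells.

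The series measured the transcripts of sorted splenic follicular B cells, naive B cells that recirculate through the follicles, on 9 single-colour arrays. There were 3 arrays from Igh ε/ε mice, homozygous for an allele named after the constant region of IgE, 3 from Igh γ1/γ1 mice, homozygous for an allele named after the constant region of IgG1, and 3 from Igh wt mice with the wild-type locus. All 3 genotypes carried VJk5, which the labels do not explain, and all mice were polyclonal, 6 to 12 weeks old, untreated as far as the labels say and housed free of specific pathogens. The replicates are called independent but not said to be separate animals, so a p-value here measures the spread among the arrays of a genotype, which may be technical. How the alleles were built and how pure the sorted cells were is not given in the sources used here. In bulk RNA, fewer cells of a type and less RNA per cell cannot be told apart.

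Values are log2 signals of probe sets, on which 1 unit is a doubling, and a probe set's level is not set against that of another. The array medians of all probe sets lay between 3.53 and 3.69. Of 12 B cell and follicular B cell markers, 10 had a value and all 10 lay above the array median on every array. Limma called 0 of these 10 in each comparison, with 3, 2 and 1 at an unadjusted p under 0.05 for Igh ε/ε minus Igh wt, Igh γ1/γ1 minus Igh wt and Igh ε/ε minus Igh γ1/γ1. They were not even across the genotypes. Their summed linear signal was 6691 to 7188 in Igh ε/ε, 5711 to 6667 in Igh γ1/γ1 and 4666 to 6127 in Igh wt. For Igh ε/ε minus Igh wt their log2 differences ran from -0.19 to 1.07, the latter for Cd79a (limma adjusted p = 0.0568). Differences come from 1 limma model of all 9 arrays, and a gene was called at an adjusted p (Benjamini-Hochberg, over the 12170 genes) under 0.05. Among all genes tested, 6.34% were called between Igh ε/ε and Igh wt, 0.0411% between Igh γ1/γ1 and Igh wt, and 2.66% between Igh ε/ε and Igh γ1/γ1. Each 2 of these comparisons share the 3 arrays of a genotype.

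In Igh ε/ε follicular B cells 3 of the 8 chaperones were called higher than in Igh wt, against 2.33% of all genes tested. They were the small heat shock protein Hspb1, the J-domain protein Dnajb1 and the Hsp110 protein Hsph1. Hspb1 was dim and entered the test mainly through the Igh ε/ε arrays, where it was high, so this count depends in part on the filter. None of the 8 was called lower (4.02% of all genes), though for Hspa4 all 3 Igh ε/ε arrays lay below the 3 Igh wt arrays. In Igh γ1/γ1 cells none of the 8 was called against Igh wt. With their brightest probe sets, the Hsp70 Hspa8, the Hsp110 relative Hspa4, Hsp90aa1 and the mitochondrial pair Hspd1 and Hspe1 were not called in any of the 3 comparisons. Another Hspa8 probe set, 17434475, was called between Igh ε/ε and Igh γ1/γ1 with adjustment over all probe sets.

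**Figure D1:**
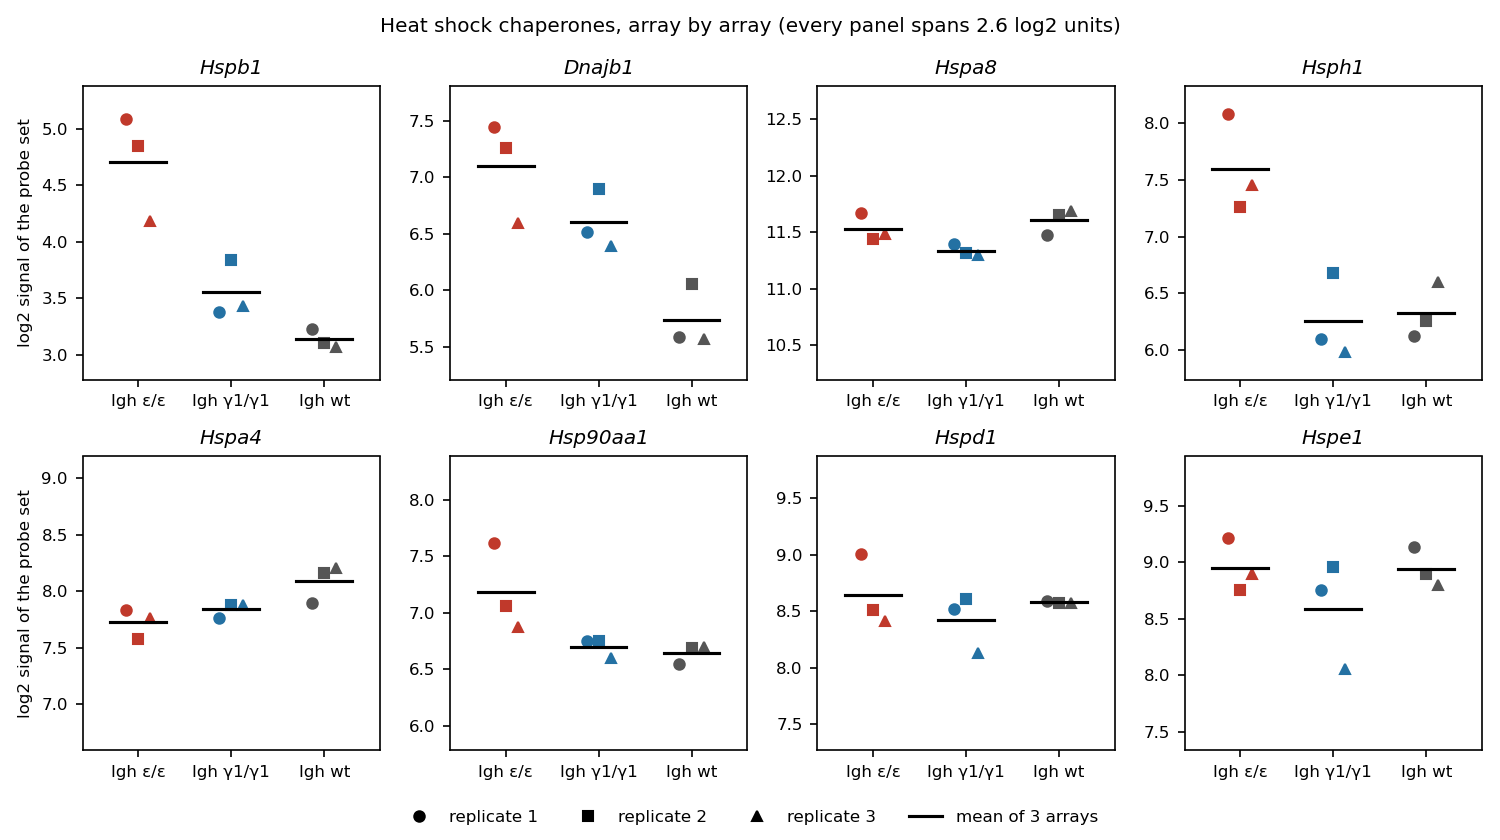
Log2 signal (vertical axes) of the brightest probe set of each of the 8 chaperones on every array, with Igh ε/ε, Igh γ1/γ1 and Igh wt from left to right in each panel; symbols mark replicates and bars the mean of 3 arrays. For Hspb1, Dnajb1 and Hsph1 all 3 Igh ε/ε arrays lie above all 3 Igh wt arrays, and Igh ε/ε replicate 1 is the highest Igh ε/ε array in all 8 panels.

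The promoters of 4 members are shown because the members that were called and those that were not both include genes with heat shock half-sites there. Dnajb1 is shown as a called member although no pair of facing half-sites was found in its windows. The promoters are RefSeq windows of the GRCm38.p6 assembly, from 250 bases before to 50 bases after an annotated start, and 6 of the 8 members had an entry, with 9 windows in all. Capitals mark 2 facing half-sites (GAANNTTC or TTCNNGAA, which read the same on both strands), and a longer capital run holds overlapping pairs. Lines are given 5′ to 3′ on the strand of the gene, for Hspb1 (chr5:135887669-135887968, plus strand), Dnajb1 (chr8:83607925-83608224, plus strand), Hsph1 (chr5:149636287-149636586, minus strand) and Hspe1 (chr1:55087898-55088197, plus strand).
Hspb1: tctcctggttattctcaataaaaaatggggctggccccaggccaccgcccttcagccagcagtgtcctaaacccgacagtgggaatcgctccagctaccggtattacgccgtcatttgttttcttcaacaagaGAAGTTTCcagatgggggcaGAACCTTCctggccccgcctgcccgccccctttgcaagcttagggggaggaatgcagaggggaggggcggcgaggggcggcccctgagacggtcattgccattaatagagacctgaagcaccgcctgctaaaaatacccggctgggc
Dnajb1: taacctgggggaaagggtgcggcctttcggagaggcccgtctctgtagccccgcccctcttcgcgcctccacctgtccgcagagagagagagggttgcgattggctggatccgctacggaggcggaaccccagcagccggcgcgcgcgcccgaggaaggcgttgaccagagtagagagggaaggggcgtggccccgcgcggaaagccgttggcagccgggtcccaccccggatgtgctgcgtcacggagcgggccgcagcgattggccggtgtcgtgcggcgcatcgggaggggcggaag
Hsph1: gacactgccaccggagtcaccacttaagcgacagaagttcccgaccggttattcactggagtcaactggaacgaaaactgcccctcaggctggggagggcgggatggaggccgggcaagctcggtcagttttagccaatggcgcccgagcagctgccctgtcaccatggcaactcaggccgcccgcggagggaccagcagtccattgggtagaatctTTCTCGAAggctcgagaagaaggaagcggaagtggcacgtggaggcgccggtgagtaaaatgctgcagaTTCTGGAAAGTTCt
Hspe1: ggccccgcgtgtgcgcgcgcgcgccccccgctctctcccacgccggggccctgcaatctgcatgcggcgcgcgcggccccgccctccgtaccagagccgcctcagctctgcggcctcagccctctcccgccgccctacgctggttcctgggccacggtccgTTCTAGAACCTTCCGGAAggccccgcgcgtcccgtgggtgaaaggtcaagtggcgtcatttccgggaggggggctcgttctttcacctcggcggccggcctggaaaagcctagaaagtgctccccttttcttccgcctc

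At least 1 pair of facing half-sites was found in 4 of the members with a window, Hspb1, Hsph1, Hspd1 and Hspe1. Over the whole table it was found in 15.1% of 32851 windows. That share counts single windows, while Hsph1 and Hspd1 had 2 windows each and Hspd1 and Hspe1 share theirs in part, so the counts are not alike. The Hspb1 window held 2 separate pairs, at 117 to 110 and at 97 to 90 bases before the start. The Hsph1 window shown held a pair at 33 to 26 bases before the start and, at bases 37 to 49 after it, a run of 3 alternating half-sites (GAANNTTCNNGAA or TTCNNGAANNTTC), a pattern found in 0.603% of all windows. The same run lay in the other Hsph1 window, whose start differs. Hspe1 carried a run of 4 alternating half-sites (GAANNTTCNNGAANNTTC or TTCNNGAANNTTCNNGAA) at 89 to 72 bases before its start, a pattern found in 8 windows of the whole table (0.0244%).

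Hspd1 and Hspe1 lie head to head, and the nearer Hspd1 window shares 285 bases with the Hspe1 window, so that its run of 4 is the same stretch read on the other strand, at 144 to 127 bases before the Hspd1 start. The other Hspd1 window had no pair. No pair was found in either window of Dnajb1, which was called, or in the window of Hspa4, which was not. The CCAAT motif (CCAAT or ATTGG, in 37.4% of all windows) was present in the windows shown of Dnajb1 and Hsph1, and TATAAA or TTTATA (13.6% of all windows) in none of the members' windows. These are matches of letters within the windows searched.

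Hspb1 is a small heat shock protein that binds unfolded proteins without using ATP. It was dim: it lay above the array median on 4 arrays, the 3 of Igh ε/ε and replicate 2 of Igh γ1/γ1, and so entered the test mainly through the genotype where it was high. Its log2 signal was 5.08, 4.85 and 4.19 on the Igh ε/ε arrays, 3.38, 3.84 and 3.44 on the Igh γ1/γ1 arrays, and 3.23, 3.10 and 3.07 on the Igh wt arrays. All Igh ε/ε arrays were above all others, while Igh γ1/γ1 and Igh wt were close together, with all 3 Igh γ1/γ1 arrays above all 3 Igh wt arrays. The means were 4.71 ± 0.47 in Igh ε/ε, 3.55 ± 0.25 in Igh γ1/γ1 and 3.14 ± 0.084 in Igh wt (SD, n = 3 each).

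Because Hspb1 was below the array median on all 3 Igh wt arrays, the size of its difference from Igh wt is not a measured fold. The limma model called it higher in Igh ε/ε than in Igh wt (adjusted p = 0.00558), with a fitted log2 difference of 1.57 that depends on those dim values. Between Igh ε/ε and Igh γ1/γ1, where only replicate 2 was above the array median, the fitted difference was 1.15 (limma adjusted p = 0.0302). The difference between Igh γ1/γ1 and Igh wt was 0.42 (limma adjusted p = 0.760). A second Hspb1 probe set, 17286958, was dimmer, with means of 3.50 ± 0.21 in Igh ε/ε, 3.22 ± 0.25 in Igh γ1/γ1 and 3.01 ± 0.11 in Igh wt. It was not called between Igh ε/ε and Igh wt (difference 0.49, limma adjusted p = 0.173 over all probe sets). Adjusted over all probe sets, the brightest was called against Igh wt (limma adjusted p = 0.0170) and not against Igh γ1/γ1 (0.0542). The Igh ε/ε against Igh wt call held in all 20 alternative settings that tested it, with adjusted p from 0.00295 to 0.0363. The Igh ε/ε against Igh γ1/γ1 call held in 9 of 20, and leaving out 1 array ended it for Igh ε/ε replicate 1 (adjusted p = 0.0714) or 2 (0.0699), Igh γ1/γ1 replicate 1 (0.0968) or 3 (0.0933), and Igh wt replicate 1 (0.0533), 2 (0.0528) or 3 (0.0595).

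Dnajb1, the stress-inducible J-domain protein that delivers clients to Hsp70 and stimulates its ATPase, lay above the array median on every array and was higher than Igh wt on all 6 mutant arrays. Its signal was 7.44, 7.26 and 6.60 on the Igh ε/ε arrays, 6.52, 6.89 and 6.39 on the Igh γ1/γ1 arrays, and 5.58, 6.05 and 5.57 on the Igh wt arrays. No mutant array reached down to the Igh wt range, and the mutant genotypes overlapped each other. The means were 7.10 ± 0.44 in Igh ε/ε, 6.60 ± 0.26 in Igh γ1/γ1 and 5.74 ± 0.28 in Igh wt.

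Dnajb1 was 2.57-fold higher in Igh ε/ε than in Igh wt (log2 difference 1.36, SE 0.24, limma adjusted p = 0.0126). In Igh γ1/γ1 the log2 difference from Igh wt was 0.87 (95% interval 0.33 to 1.40), which did not pass (unadjusted p = 0.00491, limma adjusted p = 0.506). The difference between Igh ε/ε and Igh γ1/γ1 was 0.50 (95% interval -0.04 to 1.03) and was not called (limma adjusted p = 0.287), so the mutants were not shown to differ. This call for Igh ε/ε held in 19 of 21 alternative settings. It was missed without Igh wt replicate 3 (log2 difference 1.28, adjusted p = 0.0586) and with the macrophage markers as a covariate (1.05, adjusted p = 0.0731).

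Hsph1, an Hsp110 protein that exchanges the nucleotide of Hsp70 and helps to dissolve aggregates, rose in Igh ε/ε against both other genotypes. Its signal was 8.08, 7.26 and 7.46 on the Igh ε/ε arrays, 6.10, 6.67 and 5.98 on the Igh γ1/γ1 arrays, and 6.12, 6.25 and 6.60 on the Igh wt arrays. Those of Igh ε/ε were above the other 6, and the Igh γ1/γ1 and Igh wt arrays overlapped. The means were 7.60 ± 0.43 in Igh ε/ε, 6.25 ± 0.37 in Igh γ1/γ1 and 6.32 ± 0.25 in Igh wt.

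Hsph1 was 2.43-fold higher in Igh ε/ε than in Igh wt (log2 difference 1.28, SE 0.25, limma adjusted p = 0.0184). Against Igh γ1/γ1 the log2 difference was 1.35 (95% interval 0.79 to 1.91; limma adjusted p = 0.0253). Between Igh γ1/γ1 and Igh wt the difference was -0.07 (limma adjusted p = 0.973). The call against Igh wt held in 17 of 21 alternative settings, and that against Igh γ1/γ1 in 14 of 21. Without Igh wt replicate 1 or 2 the adjusted p of the Igh ε/ε against Igh wt difference was 0.0574 or 0.0804. The Igh ε/ε against Igh γ1/γ1 difference missed the threshold without Igh ε/ε replicate 1 (0.0556), Igh γ1/γ1 replicate 1 (0.0878) or Igh γ1/γ1 replicate 3 (0.0849), with the replicate number as a block (0.0532), with only the 6 arrays compared (0.0887), without both arrays of low Xist (0.125) and with the macrophage covariate (0.121).

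Hspa4, a relative of Hsph1 in the Hsp110 family, did not share this profile. Its signal was 7.83, 7.58 and 7.76 on the Igh ε/ε arrays, 7.77, 7.88 and 7.88 on the Igh γ1/γ1 arrays, and 7.90, 8.16 and 8.21 on the Igh wt arrays. All 6 mutant arrays lay below the 3 Igh wt arrays. The difference from Igh wt was -0.36 (95% interval -0.67 to -0.05) in Igh ε/ε and -0.25 in Igh γ1/γ1, neither called (limma adjusted p = 0.146 and 0.774).

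Hsp90aa1, the stress-inducible cytosolic Hsp90, had a signal of 7.62, 7.06 and 6.87 on the Igh ε/ε arrays, 6.75, 6.75 and 6.60 on the Igh γ1/γ1 arrays, and 6.55, 6.69 and 6.70 on the Igh wt arrays. Those of Igh ε/ε were above the others, and replicate 1 was the highest. The difference from Igh wt was 0.54 in Igh ε/ε (95% interval 0.12 to 0.95; limma adjusted p = 0.113), and that from Igh γ1/γ1 was 0.48 (limma adjusted p = 0.189), so neither was called. In Igh γ1/γ1 the difference from Igh wt was 0.05 (limma adjusted p = 0.974).

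Hspa8, the constitutive cytosolic Hsp70 that also strips clathrin from vesicles, had signals of 11.67, 11.44 and 11.48 on the Igh ε/ε arrays, 11.39, 11.31 and 11.30 on the Igh γ1/γ1 arrays, and 11.47, 11.66 and 11.69 on the Igh wt arrays with its brightest probe set, 17548379. Igh ε/ε and Igh wt overlapped, and the Igh γ1/γ1 arrays were below both. The difference from Igh wt was -0.08 in Igh ε/ε (95% interval -0.37 to 0.22; limma adjusted p = 0.764) and -0.27 in Igh γ1/γ1 (limma adjusted p = 0.733). The interval for Igh ε/ε leaves room for small differences in either direction.

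Hspa8 and Hspb1 were the members with more than 1 probe set. Those of Hspb1 had their genotype means in the same order, while those of Hspa8 disagreed. Hspa8 had 4, of which 17548379 and 17548744 differed by no more than 0.027 on any array. Probe set 17434475 read 10.23, 9.56 and 10.06 on the Igh ε/ε arrays, 8.16, 8.58 and 8.26 on the Igh γ1/γ1 arrays, and 9.26, 9.26 and 9.33 on the Igh wt arrays, so that the 3 genotypes did not overlap. With adjustment over all 41345 probe sets, of which 1.8% were called in this comparison, it was 3.07-fold higher in Igh ε/ε than in Igh γ1/γ1 (log2 difference 1.62, limma adjusted p = 0.00906). Its differences from Igh wt were 0.67 in Igh ε/ε and -0.95 in Igh γ1/γ1 (limma adjusted p = 0.114 and 0.355, with 2.86% and 0.0653% of all probe sets called). Probe set 17516365 had means of 9.89 ± 0.37 in Igh ε/ε, 9.38 ± 0.27 in Igh γ1/γ1 and 9.26 ± 0.026 in Igh wt, and its Igh ε/ε minus Igh wt difference of 0.62 was not called (limma adjusted p = 0.162). When the 4 probe sets were averaged, the Igh ε/ε minus Igh γ1/γ1 difference of Hspa8 was 0.63 (limma adjusted p = 0.0488), against 0.20 (0.434) with the brightest. Which transcripts of Hspa8, or of copies like it, each probe set detects was not tested.

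**Figure D2:**
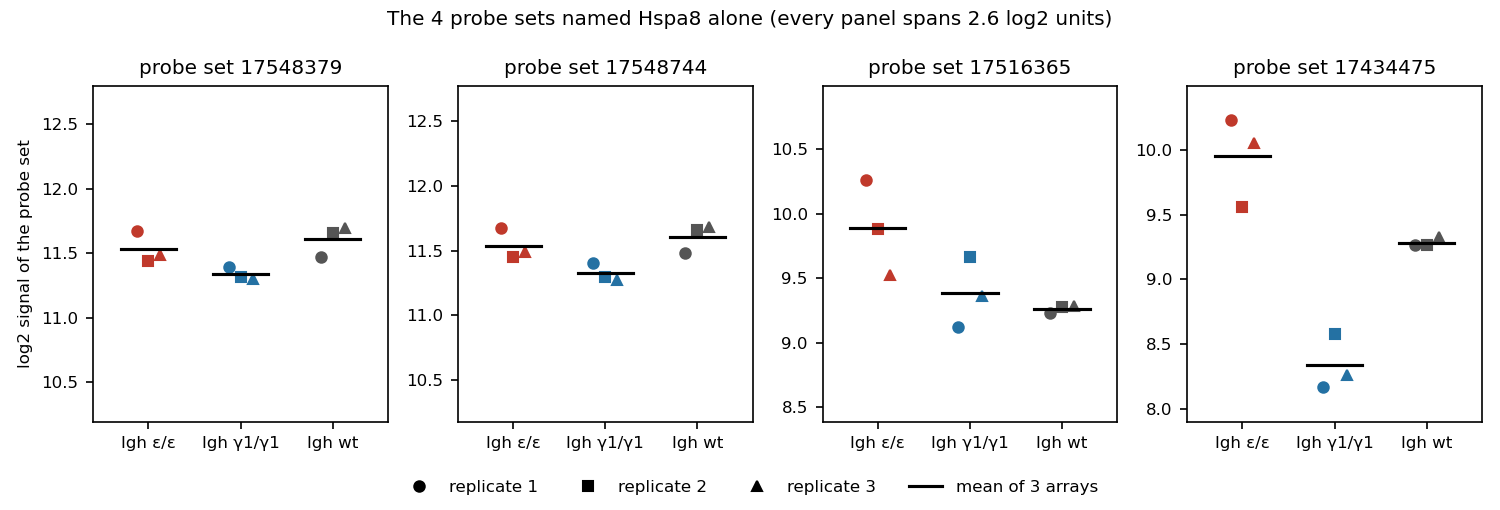
Log2 signal (vertical axes) of the 4 Hspa8 probe sets on every array, with Igh ε/ε, Igh γ1/γ1 and Igh wt from left to right; symbols mark replicates and bars the mean of 3 arrays. The brightest probe set has means of 11.53 in Igh ε/ε, 11.34 in Igh γ1/γ1 and 11.61 in Igh wt, while probe set 17434475 separates Igh ε/ε (mean 9.95), Igh γ1/γ1 (8.33) and Igh wt (9.28).

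The mitochondrial chaperonin Hspd1 and its lid Hspe1 showed no called difference; their overlapping windows both hold the run of 4 half-sites. Hspd1 read 9.001, 8.505 and 8.41 on the Igh ε/ε arrays, 8.52, 8.61 and 8.13 on the Igh γ1/γ1 arrays, and 8.59, 8.57 and 8.57 on the Igh wt arrays. Hspe1 read 9.21, 8.76 and 8.89 on the Igh ε/ε arrays, 8.76, 8.96 and 8.06 on the Igh γ1/γ1 arrays, and 9.13, 8.90 and 8.80 on the Igh wt arrays. In both genes the 3 genotypes overlapped, Igh ε/ε replicate 1 was the highest of all 9 arrays and Igh γ1/γ1 replicate 3 the lowest. The Igh ε/ε minus Igh wt difference was 0.06 for Hspd1 (95% interval -0.36 to 0.48; limma adjusted p = 0.878) and 0.01 for Hspe1 (95% interval -0.50 to 0.53; limma adjusted p = 0.983). Relative to Igh wt, the Igh γ1/γ1 differences were -0.16 for Hspd1 and -0.35 for Hspe1 (limma adjusted p = 0.899 and 0.800).

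**Figure D3:**
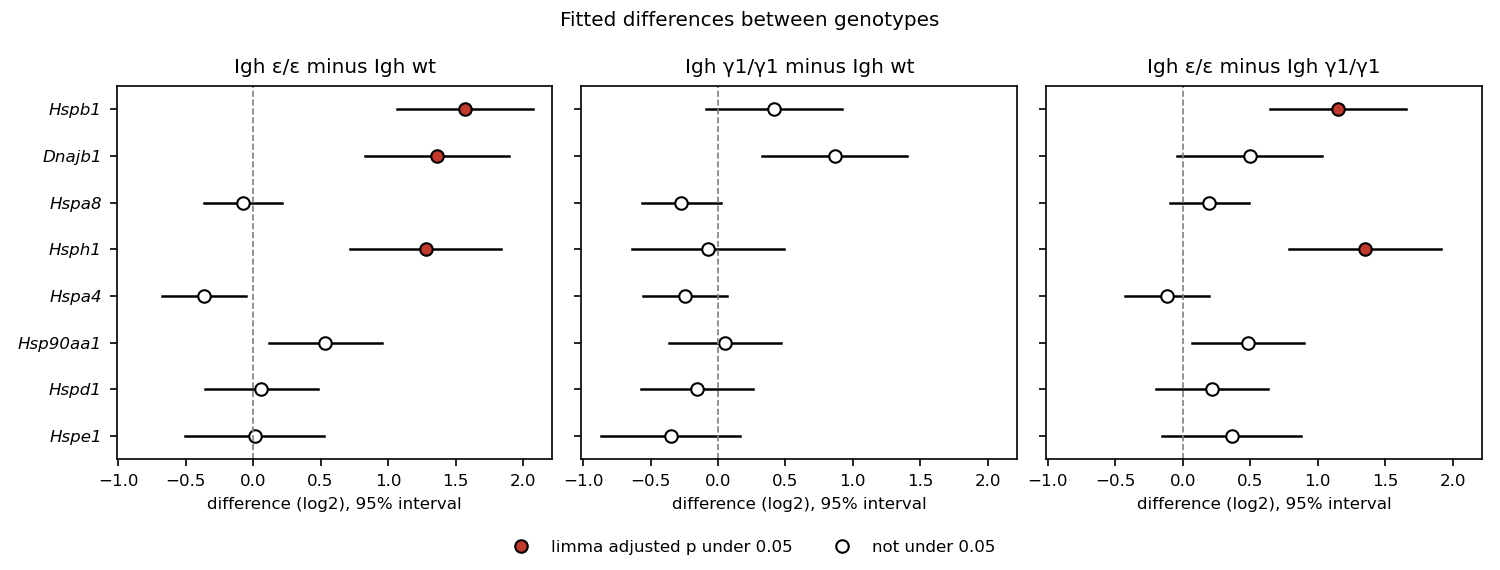
Fitted log2 difference (horizontal axes) with its 95% interval for each of the 8 chaperones, in the 3 comparisons; filled points passed the limma adjusted p threshold of 0.05. Hspb1, Dnajb1 and Hsph1 pass for Igh ε/ε minus Igh wt, none passes for Igh γ1/γ1 minus Igh wt, and Hspb1 and Hsph1 pass for Igh ε/ε minus Igh γ1/γ1.

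Counted together, 3 of the 8 members were called higher and 0 lower in Igh ε/ε than in Igh wt, where 2.33% of all genes tested were called higher and 4.02% lower. The 3 Igh ε/ε arrays were all above the 3 Igh wt arrays for 4 members (11.8% of all genes) and all below for 1 (16.6%). Hspb1, counted among these 3 and these 4, entered the test mainly through the Igh ε/ε arrays, where it was high. The counts between Igh ε/ε and Igh γ1/γ1 below include it as well. In Igh γ1/γ1 against Igh wt limma called 0 of 8 higher or lower, where 0.0247% of all genes were called higher and 0.0164% lower, and 1 member, Dnajb1, had an unadjusted p under 0.05. In this comparison the Igh γ1/γ1 arrays were all above for 2 members (4.68% of all genes) and all below for 2 (7.71%). Between Igh ε/ε and Igh γ1/γ1, 2 members were called higher, against 1.02% of all genes tested, and 0 were called lower (1.64%). In that comparison the Igh ε/ε arrays were all above for 4 members (9.86%) and all below for 0 (11.3%).

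The median log2 difference over the 8 members was 0.30 for Igh ε/ε minus Igh wt, -0.11 for Igh γ1/γ1 minus Igh wt and 0.42 for Igh ε/ε minus Igh γ1/γ1. Over all genes tested it was -0.013, -0.018 and close to 0 in the same order. Without Igh ε/ε replicate 1 the members' median for Igh ε/ε minus Igh wt was 0.10, and with each array left out in turn it ran from 0.10 to 0.43. The same range was -0.26 to 0.026 for Igh γ1/γ1 minus Igh wt, where the sign turned without Igh γ1/γ1 replicate 3 and the value was -0.26 without replicate 2. It was 0.25 to 0.53 for Igh ε/ε minus Igh γ1/γ1, with 0.25 without Igh ε/ε replicate 1 and 0.29 without Igh γ1/γ1 replicate 3.

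Members were also ranked over the arrays of each genotype. Igh ε/ε replicate 1 was the highest Igh ε/ε array for 8 of 8 members and the highest of all 9 arrays for 6. Within Igh γ1/γ1, replicate 2 was the highest for 7 of 8 members and replicate 3 the lowest for 6. Within Igh wt no array stood out in this way: replicate 1 was the highest for 3 members and the lowest for 4, and replicate 3 the highest for 4 and the lowest for 3. The median of the members, each set against its Igh wt mean, was 0.70, 0.17 and 0.09 on the Igh ε/ε arrays, -0.12, 0.07 and -0.26 on the Igh γ1/γ1 arrays, and -0.11, 0.02 and 0.02 on the Igh wt arrays. The highest of these 9 values was on Igh ε/ε replicate 1 and the lowest on Igh γ1/γ1 replicate 3.

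That array also differed in other ways. The median of 12 macrophage markers, each set against its Igh wt mean, was 2.51, 0.65 and 0.18 on the Igh ε/ε arrays, between -0.09 and 0.19 on the Igh γ1/γ1 arrays, and between -0.05 and 0.15 on the Igh wt arrays. Their summed linear signal was 1440, 304 and 204 on the Igh ε/ε arrays, 157 to 179 on the Igh γ1/γ1 arrays and 157 to 175 on the Igh wt arrays. The number of these markers above the array median was 12, 8 and 7 on the Igh ε/ε arrays, 4, 5 and 5 on the Igh γ1/γ1 arrays, and 4, 7 and 5 on the Igh wt arrays. The receptor Csf1r read 7.25, 5.15 and 3.50 on the Igh ε/ε arrays. It read 3.51, 3.20 and 3.28 on the Igh γ1/γ1 arrays, and 3.31, 3.23 and 3.25 on the Igh wt arrays. The complement genes C1qa and C1qb were above all Igh γ1/γ1 and Igh wt arrays on every Igh ε/ε array. On Igh ε/ε replicate 3 they stood 0.78 and 0.98 above their Igh wt means. For Adgre1, Lyz2 and Cd68 the Igh ε/ε arrays were not all above the Igh wt arrays. Set against its Igh wt mean, Adgre1 stood at 2.97, 0.103 and -0.082 on Igh ε/ε replicates 1, 2 and 3. In the same order Lyz2 stood at 0.62, -0.31 and 0.57, and Cd68 at 3.04, 0.48 and 0.16. Limma called 0 of the 8 macrophage markers tested between Igh ε/ε and Igh wt, with 3 at an unadjusted p under 0.05. Csf1r was above the array median on too few arrays to be among these 8. Xist was low on Igh ε/ε replicate 1 (5.25) and Igh γ1/γ1 replicate 1 (4.53), and between 10.37 and 10.79 on the other arrays. The Y-linked Eif2s3y read 7.40, 5.40 and 3.64 on the Igh ε/ε arrays, 7.99, 3.52 and 2.75 on the Igh γ1/γ1 arrays, and 2.93, 3.44 and 3.06 on the Igh wt arrays, so that Igh ε/ε replicate 2 was intermediate although its Xist was high.

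Of 5 marginal zone B cell markers tested, 2 were called higher in Igh ε/ε than in Igh wt, against 2.33% of all genes tested. They were Myof (log2 difference 1.68, limma adjusted p = 0.00378) and the Notch target Dtx1 (1.08, limma adjusted p = 0.00506). None was called lower, but not all were higher. The differences of the 5 ran from -0.17 to 1.68 for Igh ε/ε minus Igh wt and from -0.26 to 0.85 for Igh ε/ε minus Igh γ1/γ1. Myof was dim on the Igh wt arrays (3.18, 3.64 and 3.85), near the array median, so the size of its difference depends on those values. Dtx1 was also called higher in Igh ε/ε than in Igh γ1/γ1 (0.72, limma adjusted p = 0.0397). Its value was the same, 5.67, on all 3 Igh γ1/γ1 arrays. The median of the 6 markers with a value, each set against its Igh wt mean, was 0.32, 0.49 and 0.20 on the Igh ε/ε arrays, 0.12, 0.38 and 0.33 on the Igh γ1/γ1 arrays, and 0.075, -0.15 and 0.15 on the Igh wt arrays. Their summed linear signal was 383 to 471 in Igh ε/ε, 284 to 357 in Igh γ1/γ1 and 219 to 321 in Igh wt. Igh γ1/γ1 against Igh wt gave 0 calls in limma, with 2 of the 5 at an unadjusted p under 0.05. The part of these markers in the chaperone differences was not tested. Among markers of T cells, NK cells, neutrophils, erythroid cells, dendritic cells and plasma cells, 1, 4, 1, 1, 2 and 3 were tested and limma called 0 in each comparison, with unadjusted p under 0.05 for Flt3 in both mutants against Igh wt, for Xbp1 in Igh ε/ε against both other genotypes and for Irf4 in Igh ε/ε against Igh γ1/γ1.

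Without Igh ε/ε replicate 1, Hspb1, Dnajb1 and Hsph1 remained called against Igh wt, with log2 differences of 1.38, 1.19 and 1.04 (limma adjusted p = 0.0170, 0.0360 and 0.0426). Without both arrays of low Xist the differences were 1.38, 1.19 and 1.04 again, and Hsph1 missed the threshold (adjusted p = 0.0534, against 0.0227 for Hspb1 and 0.0484 for Dnajb1). With the macrophage marker median as a covariate the differences were 1.26, 1.05 and 0.97, and Hspb1 alone passed (adjusted p = 0.0363, 0.0731 and 0.107).

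Immediate-early genes respond within minutes to signals and to the handling of cells. Of 16 tested, 6 were called higher, 0 lower and 10 neither in Igh ε/ε against Igh wt, where 2.33% of all genes tested were called higher. Among the 6 were the transcription factor subunits Jun (log2 difference 2.37, limma adjusted p = 0.00745), Junb (1.77, 0.0176) and Fos (1.67, 0.0479) and the phosphatase Dusp1 (1.68, 0.00607). The median of the 17 immediate-early genes with a value, over the Igh wt mean, was 1.21, 0.74 and 0.66 on the Igh ε/ε arrays, 0.09, 0.37 and 0.28 on the Igh γ1/γ1 arrays, and 0.15, -0.12 and 0.07 on the Igh wt arrays. None was called between Igh γ1/γ1 and Igh wt, with 3 of 16 at an unadjusted p under 0.05 in limma. Between Igh ε/ε and Igh γ1/γ1, 1 of 16 was called higher, Junb (log2 difference 1.51, limma adjusted p = 0.0489), against 1.02% of all genes tested. In that comparison 8 had an unadjusted p under 0.05 and the median difference was 0.49. The part of the immediate-early genes in the chaperone differences was not tested.

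**Figure D4:**
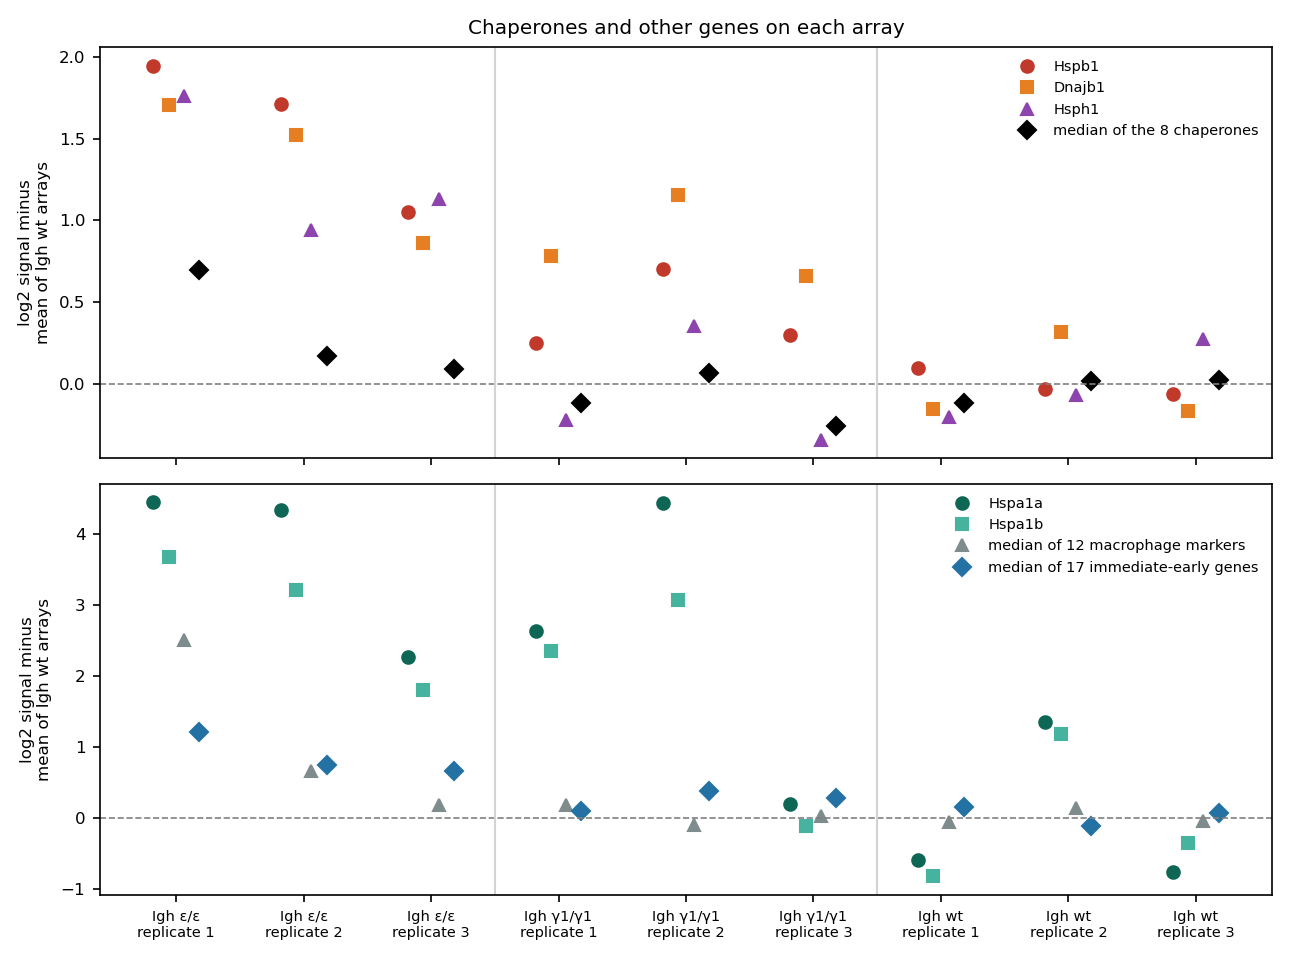
Log2 signal minus the mean of the Igh wt arrays (vertical axes) on each of the 9 arrays, Igh ε/ε first and Igh wt last: above, Hspb1, Dnajb1, Hsph1 and the median of the 8 chaperones; below, Hspa1a, Hspa1b and the medians of 12 macrophage markers and 17 immediate-early genes. Hspb1, Dnajb1, Hsph1 and both lower medians stand above 0 on all 3 Igh ε/ε arrays, and the macrophage median is 2.51 on replicate 1 and 0.18 on replicate 3.

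Hspa1a and Hspa1b, which encode the inducible Hsp70 and are known for a strong response to heat, are no members. Hspa1a read 10.11, 10.004 and 7.94 on the Igh ε/ε arrays, 8.31, 10.10 and 5.88 on the Igh γ1/γ1 arrays, and 5.08, 7.02 and 4.91 on the Igh wt arrays. Every Igh ε/ε array was above every Igh wt array, but arrays of 1 genotype differed by more than 2 units. The log2 difference from Igh wt was 3.68 (SE 0.99, limma adjusted p = 0.0555) in Igh ε/ε and 2.42 (limma adjusted p = 0.709) in Igh γ1/γ1, so neither was called. Hspa1b gave 2.89 (SE 0.81, adjusted p = 0.0605) and 1.77 (0.727). The Hspa1a and Hspa1b promoter windows are alike at 296 of 300 positions and the genes are near-identical copies, so which of them each probe set measured is uncertain. Igh γ1/γ1 replicate 2, the highest Igh γ1/γ1 array for 7 of the 8 members, was also the highest for both genes.

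Other chaperones were counted in 8 lists, which together held 77 tested genes. Against Igh wt, 2 of the 77 were called higher and 0 lower in Igh ε/ε, with a median log2 difference of 0.049. Limma called 0 of the 77 between Igh γ1/γ1 and Igh wt, with 11 at an unadjusted p under 0.05 and a median of -0.13. Between Igh ε/ε and Igh γ1/γ1, 2 were called higher and 0 lower, with a median of 0.16. For comparison, 2.33% of all genes tested were called higher in Igh ε/ε than in Igh wt, and 1.02% higher in Igh ε/ε than in Igh γ1/γ1.

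The co-chaperone Stip1 (Hop), which bridges Hsp70 and Hsp90, was called in both comparisons with Igh ε/ε. It read 7.75, 7.004 and 7.35 on the Igh ε/ε arrays, 5.68, 6.09 and 5.70 on the Igh γ1/γ1 arrays, and 6.31, 6.18 and 6.31 on the Igh wt arrays. All Igh ε/ε arrays were highest and all Igh γ1/γ1 arrays lowest. It was 2.14-fold higher in Igh ε/ε than in Igh wt (log2 difference 1.10, SE 0.20, limma adjusted p = 0.0137) and 2.92-fold higher than in Igh γ1/γ1 (1.55, limma adjusted p = 0.00532). The second of these held in all 21 alternative settings, and the first missed without Igh wt replicate 2 (adjusted p = 0.0656) or 3 (0.0540) and with the macrophage covariate (0.0777). Its difference between Igh γ1/γ1 and Igh wt, -0.45, was not called (limma adjusted p = 0.725).

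Of 21 co-chaperones of Hsp70 and Hsp90 tested, Stip1 was the only one called against Igh wt in Igh ε/ε, and 5 had an unadjusted p under 0.05. The phosphatase Ppp5c, which binds Hsp90, was 1.76-fold higher in Igh ε/ε than in Igh γ1/γ1 (log2 difference 0.82, limma adjusted p = 0.0489), a call that held in 5 of 21 alternative settings and, with 1 array left out, held only without Igh γ1/γ1 replicate 2 (adjusted p = 0.0441, against 0.0709 to 0.124 without any other array). In the endoplasmic reticulum, 1 of 12 chaperones was called against Igh wt: Dnajb9, a J-domain partner of the Hsp70 of that compartment. Dnajb9 read 8.94, 8.14 and 8.36 on the Igh ε/ε arrays, 7.66, 7.72 and 7.54 on the Igh γ1/γ1 arrays, and 7.60, 6.91 and 6.98 on the Igh wt arrays, a difference of 1.31 (SE 0.24, limma adjusted p = 0.0134) between Igh ε/ε and Igh wt. The call ended without Igh wt replicate 2 (adjusted p = 0.0664) or 3 (0.0613). Of these 12 chaperones, 3, 4 and 5 had an unadjusted p under 0.05 in limma for Igh ε/ε minus Igh wt, Igh γ1/γ1 minus Igh wt and Igh ε/ε minus Igh γ1/γ1. Their median differences were 0.24, -0.23 and 0.32 in that order. For Igh ε/ε minus Igh γ1/γ1 the differences ran from 0.067 to 0.84, so all 12 were higher in Igh ε/ε.

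No gene was called in any comparison among the other 6 lists. These are 6 tested genes of the other Hsp70 and Hsp110 proteins, 11 other J-domain proteins, 2 other small heat shock proteins and 3 genes of the heat shock factor list. The last lists held 13 subunits of the cytosolic chaperonin CCT and of prefoldin, and 9 other mitochondrial chaperones and proteases. Limma's unadjusted p was under 0.05 between Igh ε/ε and Igh wt for 2, 3, 0, 0, 1 and 1 of them in that order, between Igh γ1/γ1 and Igh wt for 1, 3, 0, 0, 1 and 1, and between Igh ε/ε and Igh γ1/γ1 for 0, 3, 0, 0, 0 and 0. Dnaja2, a constitutive J-domain protein, was at -0.48 in Igh ε/ε and -0.46 in Igh γ1/γ1 relative to Igh wt (limma adjusted p = 0.0721 and 0.552). Hspa9, the Hsp70 of the mitochondrial matrix, was at -0.36 and -0.33 (0.126 and 0.688). The 3 tested genes of the heat shock factor list were Hsf2, Hsf4 and Hsbp1, which encodes an HSF1-binding protein, and Hsf1 was not among them. The factor Hsf2 was at 0.29 in Igh ε/ε and -0.17 in Igh γ1/γ1 relative to Igh wt (limma adjusted p = 0.535 and 0.920). Hsf4 was at 0.14 and -0.07 (0.584 and 0.942), and Hsbp1 at 0.47 and 0.42 (0.269 and 0.790).

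**Figure D5:**
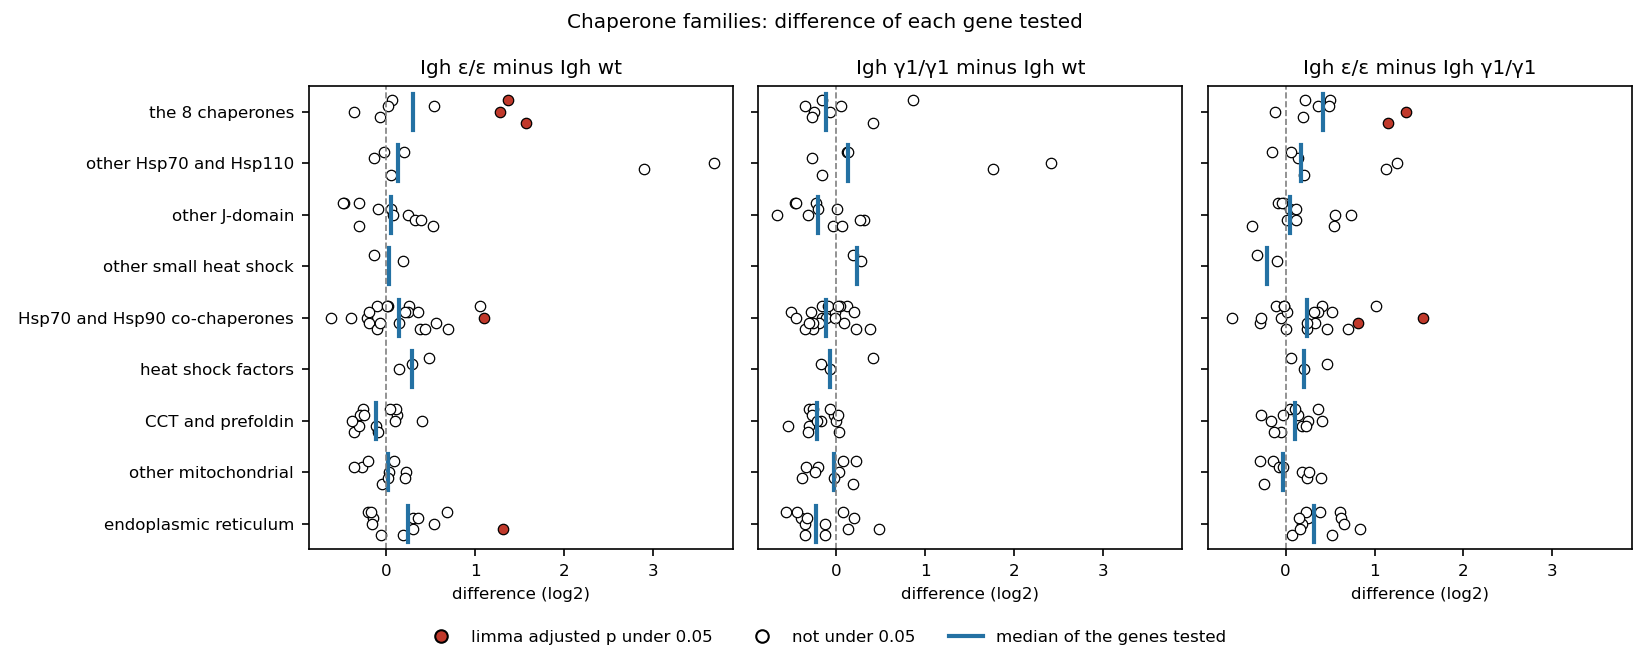
Log2 difference (horizontal axes) of every tested gene of the 8 chaperones and of the 8 other chaperone lists, in the 3 comparisons; each point is a gene, filled where the limma adjusted p was under 0.05, and a bar marks the median of the genes tested. Filled points outside the 8 chaperones are Stip1 and Dnajb9 for Igh ε/ε minus Igh wt, and Stip1 and Ppp5c for Igh ε/ε minus Igh γ1/γ1.

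Over the 9 arrays, the genes most like the mean of the 8 members (each centred on its own mean) were 2700046A07Rik, Enc1, Sirpa, Rgs1 and Atg14, with Pearson's r of 0.962, 0.952, 0.950, 0.947 and 0.944. They were picked for the highest r among all tested genes that are no members. Several were dim: 2700046A07Rik lay between 3.78 and 4.05 on all arrays. On the Igh γ1/γ1 and Igh wt arrays Enc1 lay between 3.42 and 3.78, and Rgs1 between 3.10 and 3.74. These are descriptions over 9 arrays that share the 3 genotypes and Igh ε/ε replicate 1.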

How the data were processed

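Total RNA (54 to 360 ng) of sorted cells was amplified with a Nugen kit and labelled with biotin, per the labels' protocols. The authors deposited 41345 probe-set signals for each of 9 arrays, in log2 units as judged from their range. The submitters' processing notes name R 3.3.1, and how background and normalization were handled is not given in the sources used here. No further normalization was applied. Platform annotation paired 23521 probe sets with 1 symbol and 1814 with several, and 16010 have no gene here. The brightest single-symbol probe set stood for each gene, and 12170 genes above the array median on at least 3 arrays were tested.

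The 9 arrays were fitted together in limma 3.58.1 (R 4.3.3), with eBayes, contrasts of genotype means and Benjamini-Hochberg adjustment. The script was tested on simulated data. Figures were drawn with matplotlib 3.10.9. For arrays, their number limits the precision. Promoter windows came from a RefSeq table of GRCm38.p6.

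The members, lists, tests and alternatives were chosen with earlier results of these data known. All members are named; each other list was summarised by counts, with up to 4 called genes or the 2 of smallest p as candidates for naming, and the 5 genes most like the members' mean. The lists were 8 of other chaperones, immediate-early genes, and markers of B cells, marginal zone B cells, macrophages, T cells, NK cells, neutrophils, erythroid cells, dendritic cells and plasma cells. The alternatives were quantile normalization, median centring, probe sets averaged per gene, a stricter filter (percentile 75) and none, a trended robust variance, array weights, a replicate block, an Xist covariate, only the 6 arrays compared, each array left out, an adjusted p under 0.1 and an absolute log2 difference of at least 1. The fit without both arrays of low Xist and the macrophage covariate were added after seeing the data.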

Additional observations from a re-analysis of the deposited data

How the results depend on the processing

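No called difference of a gene named here changed sign under an alternative. Between Igh ε/ε and Igh wt, 3 members were called in the 9-array fit, 2 or 3 when each array was left out, and 1 with the macrophage covariate. Between Igh ε/ε and Igh γ1/γ1, where 2 were called, there was 1 under the stricter filter, which did not test Hspb1, 0 with only the 6 arrays compared, 0 without both arrays of low Xist, 0 with the macrophage covariate, and 0 to 2 with each array left out. With probe sets averaged per gene the 2 members called between Igh ε/ε and Igh γ1/γ1 were Hspa8 and Hsph1, and Hspb1 was missed. Between Igh γ1/γ1 and Igh wt no setting called a member. The same-numbered samples did not pair (correlations of their deviations from -0.091 to 0.156); with the replicate block, 3, 0 and 1 members were called in the 3 comparisons, Hsph1 being missed in the last.

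Over all genes, the 772 called between Igh ε/ε and Igh wt became 424 with only the 6 arrays compared, 323 with the macrophage covariate, 186 to 789 with each array left out, 1626 at an adjusted p under 0.1 and 347 at an absolute log2 difference of at least 1. The 324 between Igh ε/ε and Igh γ1/γ1 became 513 with the Xist covariate, 56 with only the 6 arrays compared, 88 without both arrays of low Xist, 119 with the macrophage covariate, 122 to 330 with each array left out, 803 at an adjusted p under 0.1 and 173 at an absolute log2 difference of at least 1. The 5 between Igh γ1/γ1 and Igh wt became 0 with the replicate block, 0 with only the 6 arrays compared, 3 without both arrays of low Xist and 0 to 6 with each array left out. Of the genes called between Igh ε/ε and Igh wt 36.7% were higher, against 57.7% after quantile normalization and 45.6% after median centring; between Igh ε/ε and Igh γ1/γ1 the shares were 38.3%, 53.4% and 54.5%.

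The members' median difference between Igh ε/ε and Igh wt was 0.062 under the stricter filter and 0.020 with the macrophage covariate, and between Igh ε/ε and Igh γ1/γ1 it was 0.17 with the macrophage covariate. Differences never called kept no fixed sign for Hspa8, Hspd1 and Hspe1 between Igh ε/ε and Igh wt, with the opposite sign in 2, 5 and 7 of 21 settings. The causes were not tested.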
